A study of Rattus norvegicus with 32 samples.

Results

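The nuclear genes for the subunits of respiratory complexes II to V were examined in RNA sequencing data from the shell of the rat nucleus accumbens, a part of the ventral striatum. The members were chosen by symbol alone, with no measured value: the succinate dehydrogenase genes Sdha to Sdhd for complex II, Cyc1 and symbols beginning with Uqcr for complex III, symbols beginning with Cox4 to Cox8 for complex IV, and symbols beginning with Atp5 for complex V. The choice gave 50 of the 34322 gene symbols in the count table, with 4 in complex II, 9 in complex III, 19 in complex IV and 18 in complex V. RefSeq placed them on 18 chromosomes and listed 2 of them, Cox6c-ps1 and Atp5hl1, as pseudogenes. A filter on low counts left 45 members among 17059 genes tested, with 4, 9, 14 and 18 in complexes II, III, IV and V. The 5 members that did not pass were all in complex IV: Cox6a2 had 46 counts over all libraries, Cox8b 67, Cox8c 4, Cox7b2 16 and Cox6c-ps1 1.

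Rats of wild-type genotype had been given conditioning shocks together with either a neutral cue or a lemon odour, here called the anxiety cue, and the same cue was present when anxiety was tested later. They received vehicle or cannabidiol (CBD), a cannabis constituent that does not intoxicate, ahead of those tests, and tissue was collected once a last shock had been given. The design crossed drug with cue in 4 groups of 8 libraries: vehicle or CBD, each under the neutral cue or the anxiety cue. Every group therefore shared the shocks, and no group without shock or without any cue was among the 4 groups. The labels give no strain, sex, age or dose, and nothing in them ties a library to its own rat. The p-values below therefore measure the spread among these libraries alone, and that spread may be partly technical. Library numbers follow the order of deposition and have no meaning across groups.

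Complexes II to V sit in the inner mitochondrial membrane. Complex II oxidises succinate in the citric acid cycle and passes the electrons to ubiquinone, complex III passes them on to cytochrome c, and complex IV hands them to oxygen. Complexes III and IV pump protons, and complex V, the ATP synthase, uses the returning protons to make ATP. Complex II is built from nuclear genes alone, whereas complexes III, IV and V also hold subunits encoded in mitochondrial DNA. Neurons draw most of their ATP from this chain, chiefly to restore ion gradients after synaptic and spike activity. Transcription of many of these nuclear genes is known to use the factors NRF1, NRF2 (an ETS family factor also called GABP) and YY1.

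Promoter sequence is shown first because it is a feature that the choice by symbol did not use. RefSeq promoter windows (assembly GRCr8, 250 bases before to 50 after the start) were at hand for 41 of the 50 members and 12542 of the tested genes, and exact letters were searched on both strands. The ETS motif CCGGAAG was found in 14 of the 41 members (34.1%), against 15.1% of tested genes. The letters GCATGCGC, the core of the NRF1 motif, were found in 7 members (17.1%), against 4.39%, and the full NRF1 palindrome, which is that core with GC before it, in 3 members (7.32%), against 1.61%. The YY1 motif AAGATGGC was found in 7 members (17.1%), against 4.83%. At least 1 of the core, ETS and YY1 motifs was present in 20 members (48.8%) and in 22.1% of tested genes. The shares by complex for the ETS motif were 2 of 4 in complex II, 3 of 6 in III, 4 of 15 in IV and 5 of 16 in V, and the full NRF1 palindrome was found in 3 complex V promoters, those of Atp5mc2, Atp5me and Atp5po. The 41 members include some that did not pass the filter on low counts, among them Cox8c, which holds the NRF1 core, whereas the compared genes all passed. A match is a description of the letters and does not show that a factor binds there.

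Of the 16 members with a motif wholly inside the 150 bases before the start, 7 had a stretch that overlapped no gene in RefSeq, and 5 of these are printed 5′ to 3′ on the gene's strand, with the matched ETS or NRF1 letters in capitals on whichever strand they were read. Uqcrc1 (chr8:118468073-118468222 on the plus strand) carries the NRF1 core, Uqcrc2 (chr1:184599090-184599239 on the plus strand) and Cox8a (chr1:213833624-213833773 on the minus strand) carry a pair of ETS motifs each, Uqcrh (chr5:134790883-134791032 on the minus strand) carries a single ETS motif, and Atp5po (chr11:44657484-44657633 on the minus strand) carries the full NRF1 palindrome.
Uqcrc1: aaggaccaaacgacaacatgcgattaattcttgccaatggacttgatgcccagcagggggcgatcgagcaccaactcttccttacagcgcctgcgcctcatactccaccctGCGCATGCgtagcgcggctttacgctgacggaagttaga
Uqcrc2: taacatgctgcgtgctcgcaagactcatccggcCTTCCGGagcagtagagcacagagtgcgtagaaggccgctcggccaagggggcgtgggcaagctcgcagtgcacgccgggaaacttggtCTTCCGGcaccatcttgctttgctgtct
Uqcrh: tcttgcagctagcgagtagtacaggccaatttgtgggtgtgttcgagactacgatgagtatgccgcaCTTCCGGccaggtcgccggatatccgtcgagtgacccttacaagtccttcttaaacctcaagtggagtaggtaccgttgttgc
Cox8a: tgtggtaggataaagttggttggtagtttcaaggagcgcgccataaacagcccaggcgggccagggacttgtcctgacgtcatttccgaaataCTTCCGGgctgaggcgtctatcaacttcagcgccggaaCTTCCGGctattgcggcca
Atp5po: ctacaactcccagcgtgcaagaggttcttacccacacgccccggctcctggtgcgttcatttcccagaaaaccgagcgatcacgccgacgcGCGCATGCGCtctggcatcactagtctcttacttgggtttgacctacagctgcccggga
The values of these 5 genes, given below, differed among themselves: in vehicle libraries Uqcrc1 and Atp5po were among the members with p under 0.05 for the cue and Uqcrc2 stood close to 0. Motif presence was not tested against the response.

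Library totals ranged from 11.65 to 24 M counts. Markers of medium spiny neurons, the main neurons of the accumbens, were present in every group with none at 0 throughout, and their summed level ranged from 1520 to 7840 CPM (read counts scaled for library size) in the vehicle neutral-cue libraries, 5630 to 8160 with CBD and the neutral cue, 1820 to 9250 with vehicle and the anxiety cue, and 2730 to 9630 with CBD and the anxiety cue. The summed level of septal and pallidal markers reached 653, 378, 614 and 530 CPM in the same order. The summed level of cortical glutamatergic markers was 1130 CPM in CBD neutral-cue library 6, beside a median of 7.32 CPM in its group. In bulk tissue, fewer cells of a type and less RNA per cell cannot be told apart.

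The anxiety cue was first compared with the neutral cue among vehicle libraries, to ask what the cue changed without the drug. Members of all 4 complexes lay slightly lower with the anxiety cue. The log2 fold change was below 0 for 44 of 45 tested members, beside 49.9% of all genes tested (50.1% were above 0), and its median was -0.16 (all genes, 0.000368). No member and no gene (0%) passed an adjusted p of 0.05 by edgeR's quasi-likelihood test with Benjamini-Hochberg adjustment, and the smallest adjusted p of a member was 0.374. At an unadjusted p under 0.05 there were 16 members lower and 0 higher, beside 6.34% of genes lower and 6.41% higher. DESeq2 called 0 genes and 0 members. The counts of members above describe genes that varied together, and they are not independent observations.

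The complexes were compared by their medians. The median log2 fold change was -0.11 in complex II (4 of 4 below 0), -0.14 in complex III (9 of 9), -0.16 in complex IV (13 of 14) and -0.16 in complex V (18 of 18). No difference between complexes was tested. With the mean level of cytosolic ribosomal protein genes as a covariate, a choice made after seeing the data, the medians changed in order. They were -0.11 in II, -0.10 in III, -0.09 in IV and -0.06 in V, so complex II kept its value and the others lay nearer 0. The 37 tested nuclear subunits of complex I had a median of -0.16 with 36 below 0, and 68 cytosolic ribosomal proteins had a median of -0.16 with all 68 below 0. The ribosomal mean by library (log2, relative to all libraries) had a median of -0.02 in vehicle neutral-cue libraries and -0.04 in vehicle anxiety-cue libraries. Its highest value was 0.74, in vehicle neutral-cue library 6. No difference between these lists and complexes II to V was tested.

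**Figure D1:**
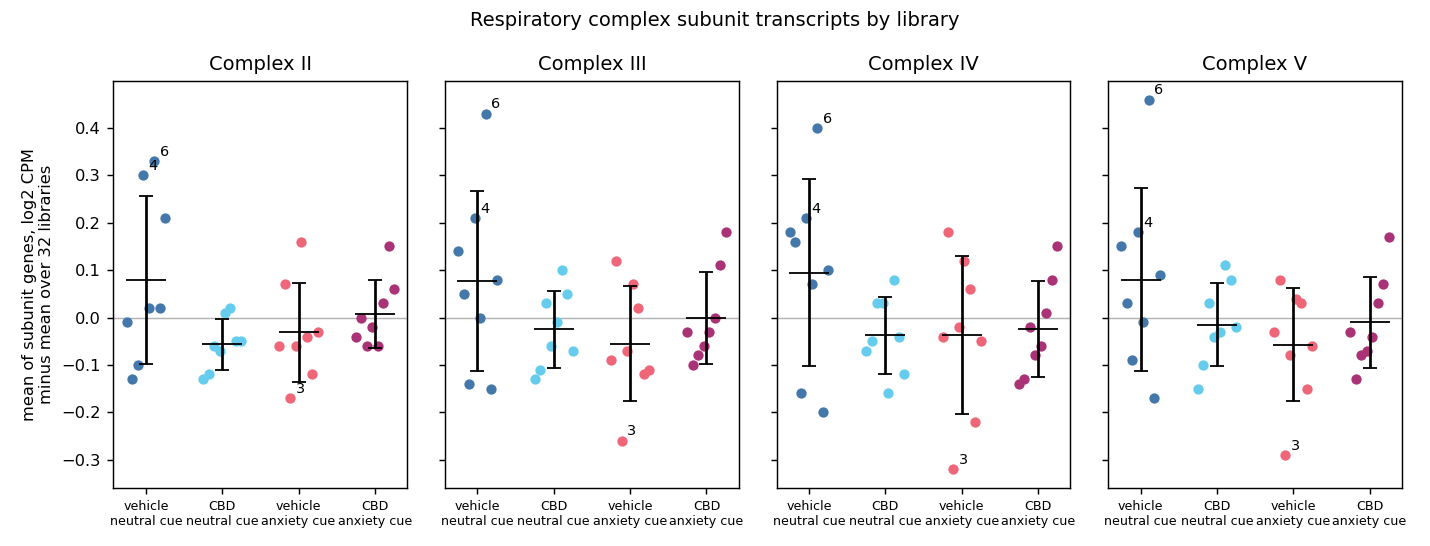
Mean log2 CPM of the tested members of each complex in every library, centred on the mean of all 32 libraries, with 1 panel per complex and 1 column per group; points are libraries and bars are the group mean with its SD (n = 8). Vehicle neutral-cue library 6 is the highest in all 4 panels, and the 4 groups overlap in each.

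Complex II, with the catalytic pair Sdha and Sdhb and the membrane anchors Sdhc and Sdhd, was uneven inside. Sdhc, an anchor that helps form the ubiquinone site, was at 106 to 159 CPM (median 117) with vehicle and the neutral cue and at 93.8 to 134 CPM (median 103) with vehicle and the anxiety cue. The highest Sdhc value belonged to vehicle neutral-cue library 4 and the lowest of the vehicle libraries to anxiety-cue library 3, and the groups overlapped. The log2 fold change was -0.22 (SE 0.084, adjusted p = 0.374, edgeR). Sdhb, the iron-sulfur subunit that carries electrons to ubiquinone, had ranges of 126 to 186 CPM (median 146) and 114 to 170 CPM (median 131), which also overlapped, and a log2 fold change of -0.16 (SE 0.076, adjusted p = 0.389, edgeR). Sdha, the flavoprotein that oxidises succinate, was at -0.07 (SE 0.074), with medians of 411 and 382 CPM. The second anchor, Sdhd, was at -0.04 (SE 0.07) with medians of 89.6 and 91.9 CPM, so its median was the higher one with the anxiety cue while its fitted mean was lower. The anchors, which are needed in equal number in the assembled enzyme, thus had different estimates, and the difference between them was not tested.

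In complex III the redox subunits had a median log2 fold change of -0.17, the core proteins -0.09 and the small subunits -0.14. Uqcrfs1, the Rieske iron-sulfur protein, was at 64.6 to 87.1 CPM (median 75.5) with the neutral cue and 61.2 to 71.8 CPM (median 64.1) with the anxiety cue. Its anxiety-cue libraries reached from below the neutral-cue range into its lower part, and its log2 fold change of -0.21 (SE 0.068, adjusted p = 0.374, edgeR) was the largest of the members relative to its error. Uqcr10, a small subunit of the membrane part, had medians of 29 and 23.1 CPM and a log2 fold change of -0.29 (SE 0.1, adjusted p = 0.374, edgeR). Uqcrq, another small subunit, was at -0.23 (SE 0.11) and Uqcrc1, a core protein, at -0.17 (SE 0.082), with adjusted p of 0.385 and 0.388 by edgeR. Cyc1, which holds the heme that reduces cytochrome c, was at -0.14 (SE 0.076). The other core protein, Uqcrc2, was at -0.02 (SE 0.063) with medians of 153 and 149 CPM. Uqcr11, a small subunit, was at -0.04 (SE 0.13), and its wide neutral-cue range of 79.9 to 178 CPM is described below. The remaining small subunits, Uqcrb and Uqcrh, were at -0.14 and -0.10.

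In complex IV the subunits used in most tissues behaved alike. All 10 of them were below 0, from -0.23 to -0.12, with a median of -0.16. Cox6c was at 78.5 to 144 CPM (median 91.9) with the neutral cue and 71.5 to 92.5 CPM (median 81.9) with the anxiety cue, with a log2 fold change of -0.23 (SE 0.087, adjusted p = 0.374, edgeR). The value of 144 CPM was that of library 6, and the other 7 neutral-cue libraries ended at 98.5 CPM. Cox6a1, a nuclear subunit with a muscle counterpart in Cox6a2, was at -0.20 (SE 0.087, adjusted p = 0.378, edgeR). Cox7a2l, a factor for supercomplexes of III and IV that is counted here by its symbol, was at -0.21 (SE 0.095, adjusted p = 0.385, edgeR). Cox4i1, the widely used isoform of the largest nuclear subunit, had medians of 344 and 299 CPM and was at -0.17 (SE 0.082), and Cox5a was at -0.15 (SE 0.077). Cox6b1 was at -0.19 (SE 0.097), Cox5b and Cox7c at -0.16 each, Cox8a at -0.12, and Cox7a2 and Cox7b at -0.19 (SE 0.14) and -0.15 (SE 0.15). The isoforms of restricted tissues were scarce: Cox4i2, the alternative isoform to Cox4i1, ranged from 0.375 to 1.41 CPM over all groups and Cox6b2, known from testis, from 0.381 to 1.52 CPM, and the SEs of 0.25 and 0.27 were larger than their values of -0.07 and -0.03. The single member above 0 was Cox7a2l2, at 0.03 (SE 0.23).

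In complex V the parts of the enzyme gave estimates of unequal size and the same sign, and the differences between parts were not tested. The F1 head and central stalk, where ATP is made, had a median of -0.09 (5 of 5 below 0), the c ring that turns in the membrane -0.10 (3 of 3), the peripheral stalk that holds the head still -0.185 (4 of 4) and the small membrane subunits -0.21 (4 of 4). Atp5pf, a peripheral stalk subunit, was at 85.9 to 142 CPM (median 106) with the neutral cue and 75.6 to 113 CPM (median 88.1) with the anxiety cue, with overlap and a log2 fold change of -0.27 (SE 0.088, adjusted p = 0.374, edgeR). Atp5mc3, 1 of 3 genes for the same ring protein, was at -0.22 (SE 0.084, adjusted p = 0.374, edgeR), while the other two, Atp5mc1 and Atp5mc2, were at -0.09 and -0.10. Atp5po, the stalk subunit that sets oligomycin sensitivity and whose promoter is printed above, was at -0.20 (SE 0.083, adjusted p = 0.376, edgeR) with medians of 119 and 104 CPM. The alpha and beta subunits of the head gave the smallest differences: Atp5f1a was at -0.05 (SE 0.068) and Atp5f1b, the catalytic subunit, at -0.07 (SE 0.062), with medians of 1120 CPM for Atp5f1b in both groups. The small membrane subunits Atp5mk, Atp5mg and Atp5mf, which help shape and pair the synthase in the membrane, were at -0.24 (SE 0.11), -0.21 (SE 0.092) and -0.20 (SE 0.089), and Atp5me was at -0.14. In the head, Atp5f1c, Atp5f1d and Atp5f1e were at -0.09, -0.11 and -0.22, and in the stalk Atp5pd and Atp5pb were at -0.17 (SE 0.079) and -0.10. The pseudogene Atp5hl1 was at -0.10, and how its reads were split from those of a related gene is uncertain. Atp5if1, the inhibitor that stops the enzyme from running backwards, was at -0.17 (SE 0.1).

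**Figure D2:**
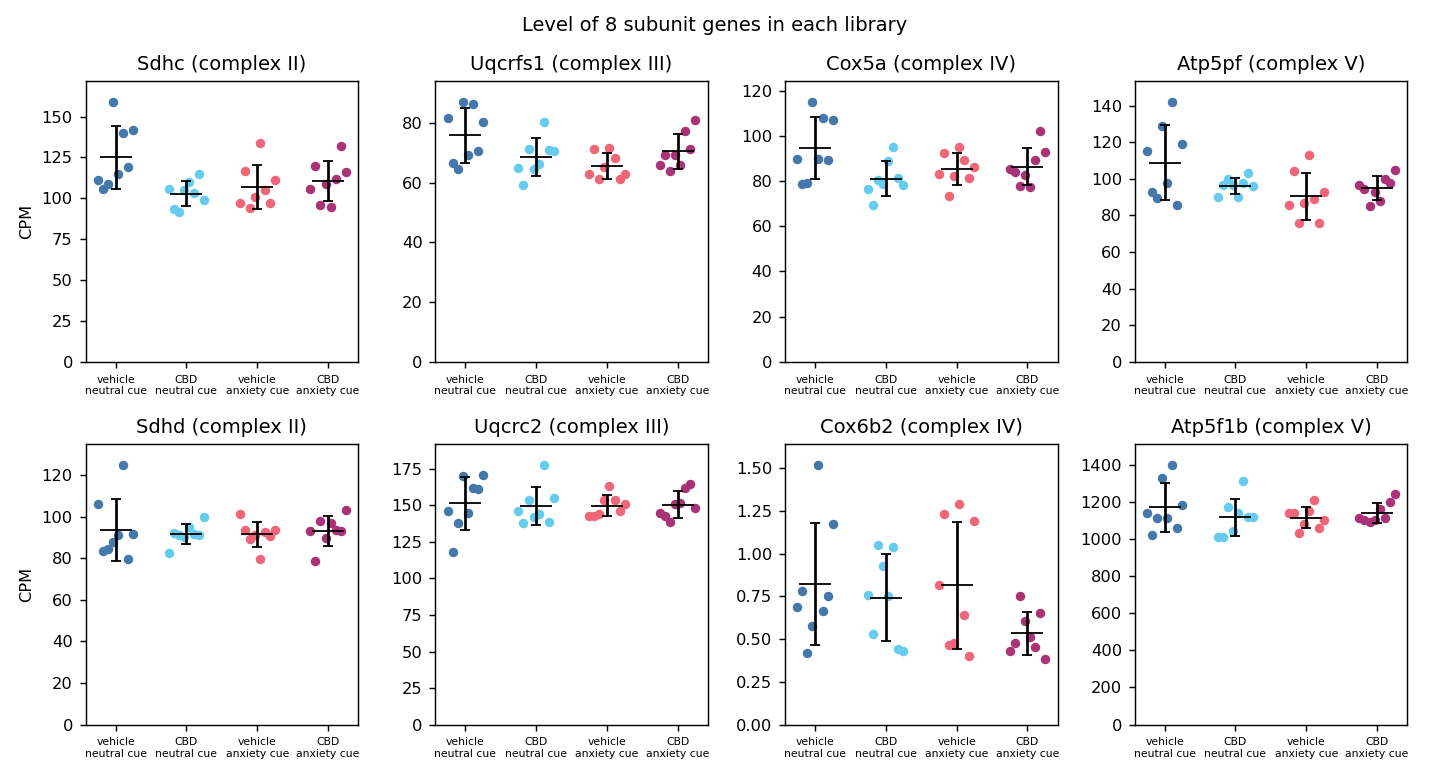
CPM of 8 members in every library by group, 2 per complex, with points for libraries and bars for the group mean and its SD (n = 8). Sdhc, Uqcrfs1, Cox5a and Atp5pf are set beside Sdhd, Uqcrc2, Cox6b2 and Atp5f1b; in every panel the groups overlap.

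The same cue comparison among CBD libraries gave values near 0. Of 45 members, 29 were above 0 (48.8% of all genes, with 51.2% below), with a median log2 fold change of 0.03 (all genes, -0.00347). By edgeR's quasi-likelihood test with Benjamini-Hochberg adjustment 0 members and 0 genes (0%) passed, 0 members had an unadjusted p under 0.05 in either direction (2.29% of genes lower, 1.65% higher), and the smallest adjusted p was 0.995. DESeq2 called 0 genes. The complex medians were 0.06 for II, 0.04 for III, 0.03 for IV and 0.01 for V. Sdhc, for instance, was at 0.11 (SE 0.084), with 91.9 to 115 CPM (median 104) with CBD and the neutral cue and 94.5 to 132 CPM (median 111) with CBD and the anxiety cue. Sdhb was at 0.085 (SE 0.076). Uqcrh, the hinge protein that docks cytochrome c, was at 0.13 (SE 0.082) and Uqcrc1 at 0.076 (SE 0.082). Cox5a was at 0.092 (SE 0.077), Atp5f1a at 0.061 (SE 0.068) and the pseudogene Atp5hl1 at -0.18 (SE 0.19). Cox6b2 was at -0.47 (SE 0.28), from levels of 0.428 to 1.05 CPM and 0.381 to 0.749 CPM.

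CBD was compared with vehicle under the neutral cue to ask what the drug changed without the odour. This comparison shares its 8 vehicle libraries with the cue comparison above, so the pair are not independent. Members again lay lower, with 42 of 45 below 0 (49.1% of all genes, with 50.9% above) and a median of -0.14 (all genes, 0.00548). No member and no gene (0%) passed by edgeR's quasi-likelihood test with Benjamini-Hochberg adjustment, where the smallest adjusted p of a member was 0.102. At an unadjusted p under 0.05 there were 9 members lower and 0 higher, beside 12% of genes lower and 10.5% higher. DESeq2 called 382 genes (1.97% of those it tested), 171 lower and 211 higher, but 0 members, whose smallest adjusted p was 0.06.

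The medians by complex were -0.14 for II (4 of 4 below 0), -0.15 for III (8 of 9), -0.17 for IV (13 of 14) and -0.11 for V (17 of 18). With the ribosomal protein covariate they were -0.14, -0.09, -0.07 and -0.04. Liver markers differed along with these groups: their summed level had a median of 13.2 CPM (11.6 to 23.6) with vehicle and 51.7 CPM (11.5 to 325) with CBD, and of the 7 genes Ahsg was at 0 throughout in both. Alb, the serum albumin made by liver, was above 20 CPM in 4 of the 8 CBD libraries and 0 of the 8 vehicle libraries. Without the libraries with Alb above 20 CPM the medians were -0.11, -0.10, -0.12 and -0.05. With liver and fat marker levels as covariates and all libraries kept, they were -0.137, -0.133, -0.156 and -0.121. Sdhc had the largest difference relative to its error, -0.28 (SE 0.085, adjusted p = 0.102, edgeR), and Sdhb was at -0.20 (SE 0.076, adjusted p = 0.142). Sdhb levels spanned 126 to 186 CPM with vehicle and 125 to 141 CPM with CBD, so the CBD libraries lay around the lower end of the vehicle range. Sdha was at -0.09 (SE 0.074) and Sdhd at -0.03 (SE 0.07). Cox5a, the subunit that faces the matrix, was at -0.22 (SE 0.077, adjusted p = 0.124, edgeR), from 78.8 to 115 CPM (median 89.7) with vehicle to 69.5 to 94.9 CPM (median 79.4) with CBD. Uqcr10 was at -0.24 (SE 0.1), Atp5po at -0.21 (SE 0.083) and Atp5pf at -0.18 (SE 0.088), with adjusted p of 0.17, 0.155 and 0.224 by edgeR. Uqcrc1 and Cox4i1 were at -0.18 each (SE 0.082) and Atp5pd, a stalk subunit, at -0.16 (SE 0.079). Cox8a was at -0.0023, and Uqcr11 was at 0.08 (SE 0.13).

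Under the anxiety cue CBD made little difference to the members. Of 45, 42 were above 0 (48.3% of all genes, with 51.7% below), yet the median was 0.04 (all genes, -0.00331), and no member or gene (0%) passed by edgeR's quasi-likelihood test with Benjamini-Hochberg adjustment, where the smallest adjusted p was 1. At an unadjusted p under 0.05 there was 1 member lower and 0 higher (0.832% of genes lower, 0.75% higher). That member was Cox6b2, at -0.59 (SE 0.28, adjusted p = 1, edgeR) from a mean of 0.813 ± 0.373 CPM (SD, n = 8) to 0.533 ± 0.126 CPM (SD, n = 8), a level at which few reads carry the value. DESeq2 called 0 genes. The complex medians were 0.03 for II, 0.06 for III, 0.03 for IV and 0.04 for V. Atp5mc3 was at 0.12 (SE 0.084), Atp5mc1 at 0.088 (SE 0.082), Uqcrfs1 at 0.10 (SE 0.068), Cyc1 at 0.075 (SE 0.076) and Cox8a at 0.094 (SE 0.084). In complex II, Sdhc was at 0.049 (SE 0.084) and Sdhb at 0.041 (SE 0.076).

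The interaction asks whether the cue difference under CBD was itself different from that under vehicle. It was above 0 for 42 of 45 members (48.8% of all genes, with 51.2% below 0) with a median of 0.18 (all genes, -0.00754), and no member or gene (0%) passed by edgeR's quasi-likelihood test with Benjamini-Hochberg adjustment (smallest adjusted p of a member, 0.321). At an unadjusted p under 0.05, 7 members were higher and 0 lower, beside 7.02% and 6.78% of genes. DESeq2 called 14 genes (0.0791%) and 0 members. The medians were 0.18 for II, 0.19 for III, 0.19 for IV and 0.17 for complex V. Without vehicle neutral-cue library 6 they were 0.10 in IV and 0.09 in V, and with the ribosomal protein covariate 0.17, 0.14, 0.07 and 0.07 in II to V. With the tissue marker covariates described below, complex II was at 0.09. Sdhc was at 0.33 (SE 0.12, adjusted p = 0.321, edgeR), Atp5mc3 at 0.29 (SE 0.12), Uqcrfs1 at 0.25 (SE 0.096) and Cox5a at 0.24 (SE 0.11). With the tissue marker covariates Sdhc was at 0.092. Cox6b1 was at 0.28 (SE 0.14), Uqcrc1 and Atp5po at 0.25 each (SE 0.12) and Sdhb at 0.24 (SE 0.11). Uqcrc2 was at 0.03 and Uqcr11 at -0.01. By its construction the interaction uses the same vehicle neutral-cue libraries, so it adds no separate evidence.

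**Figure D3:**
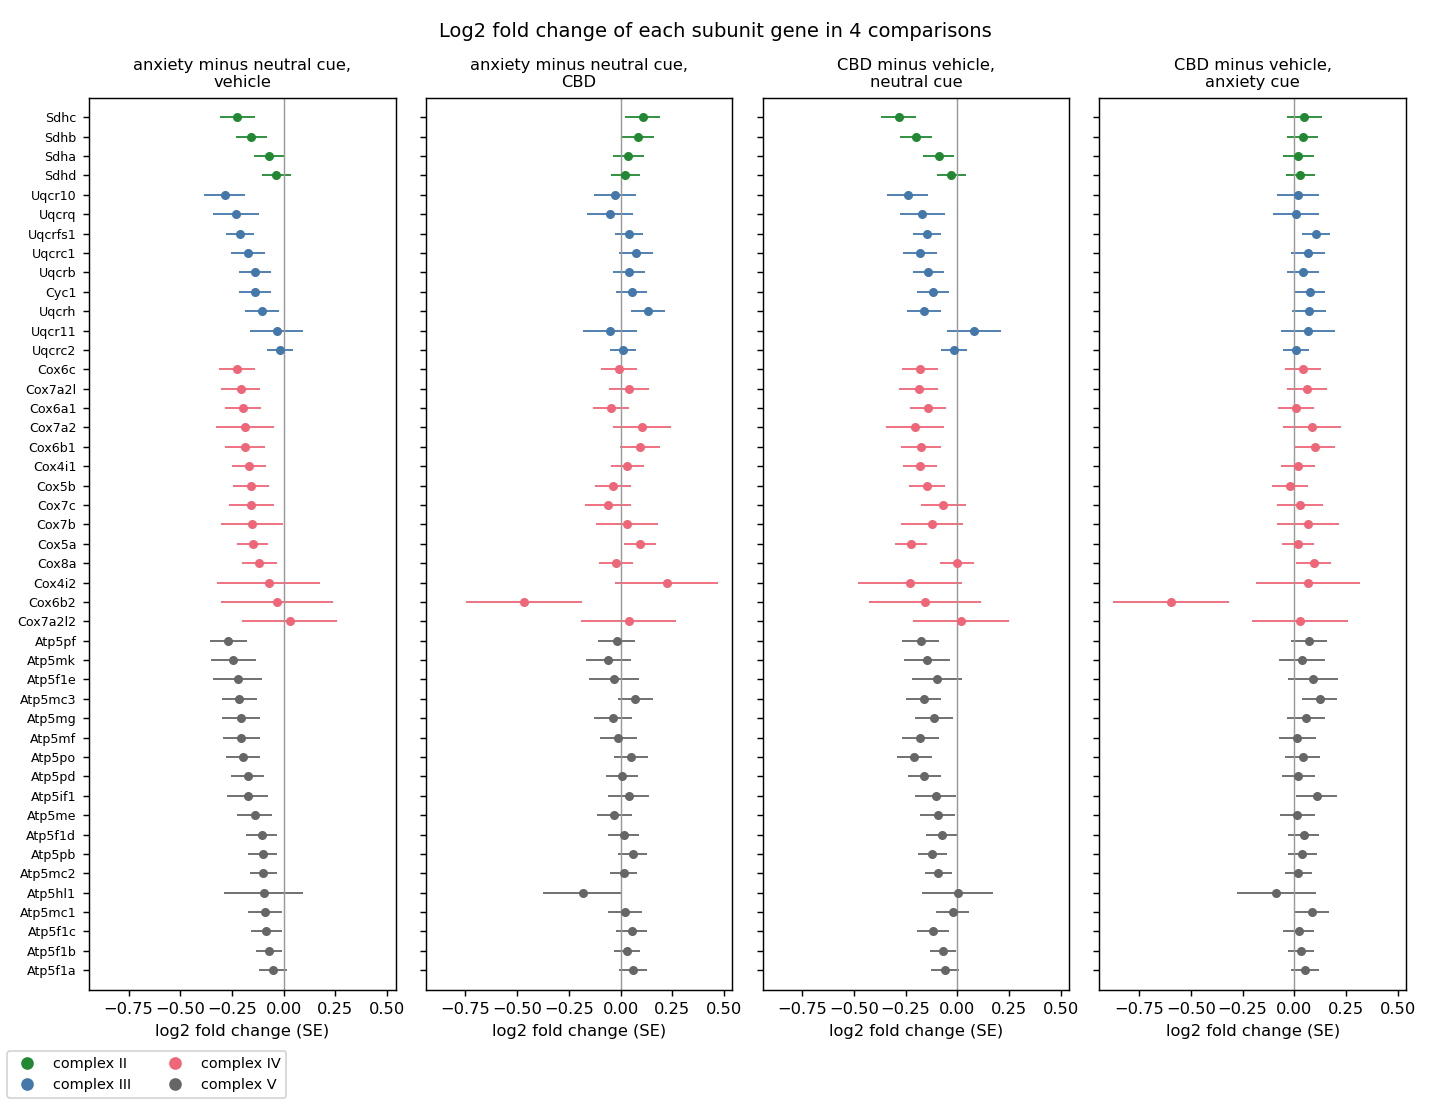
Log2 fold change of each tested member in the 4 comparisons of groups, ordered by complex, with bars of 1 SE; points left of 0 are lower with the anxiety cue or with CBD. Most members lie left of 0 in the cue comparison of vehicle libraries and the CBD comparison under the neutral cue, and near 0 in the other comparisons.

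The group means and spreads show where these differences arise. The complex V mean was 0.08 ± 0.19 (SD, n = 8; log2 relative to all libraries) with vehicle and the neutral cue, -0.02 ± 0.09 with CBD and the neutral cue, -0.06 ± 0.12 with vehicle and the anxiety cue and -0.01 ± 0.10 with CBD and the anxiety cue. The vehicle neutral-cue libraries ran from -0.17 to 0.46 in complex V, from -0.20 to 0.40 in complex IV, from -0.15 to 0.43 in complex III and from -0.13 to 0.33 in complex II. Its SD was the largest of the 4 groups in each complex, and each of its ranges reached below the lowest value of the CBD libraries with the anxiety cue. Both comparisons with many members below 0 thus used the group with the highest mean and the widest spread.

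Single libraries held much of that spread. Vehicle neutral-cue library 6 was the highest library in all 4 complexes (0.33, 0.43, 0.40 and 0.46 in II to V) and held the top value of 29 of 45 members. Its complex I mean was 0.48 and its cytosolic ribosomal protein mean 0.74. Library 4 of that group was at 0.30, 0.21, 0.21 and 0.18 in II to V, with ribosomal proteins at -0.13, and held the top value of 8 members. At the low end, vehicle anxiety-cue library 3 was at -0.17, -0.26, -0.32 and -0.29 and held the lowest value of 20 members. With library 6 left out, the cue difference in vehicle had medians of -0.09 in complex IV and -0.09 in complex V, and the CBD difference under the neutral cue medians of -0.10 in complex III, -0.09 in IV and -0.04 in V. With library 4 left out instead, the complex II cue median was -0.08, its value nearest to 0 in the 32 fits. The complex III cue median was nearest to 0, at -0.107, without vehicle anxiety-cue library 3. With library 6 and anxiety-cue library 3 both left out, a choice made after seeing the data, the median over the tested members was -0.06 for the cue in vehicle and -0.07 for CBD with the neutral cue.

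**Figure D4:**
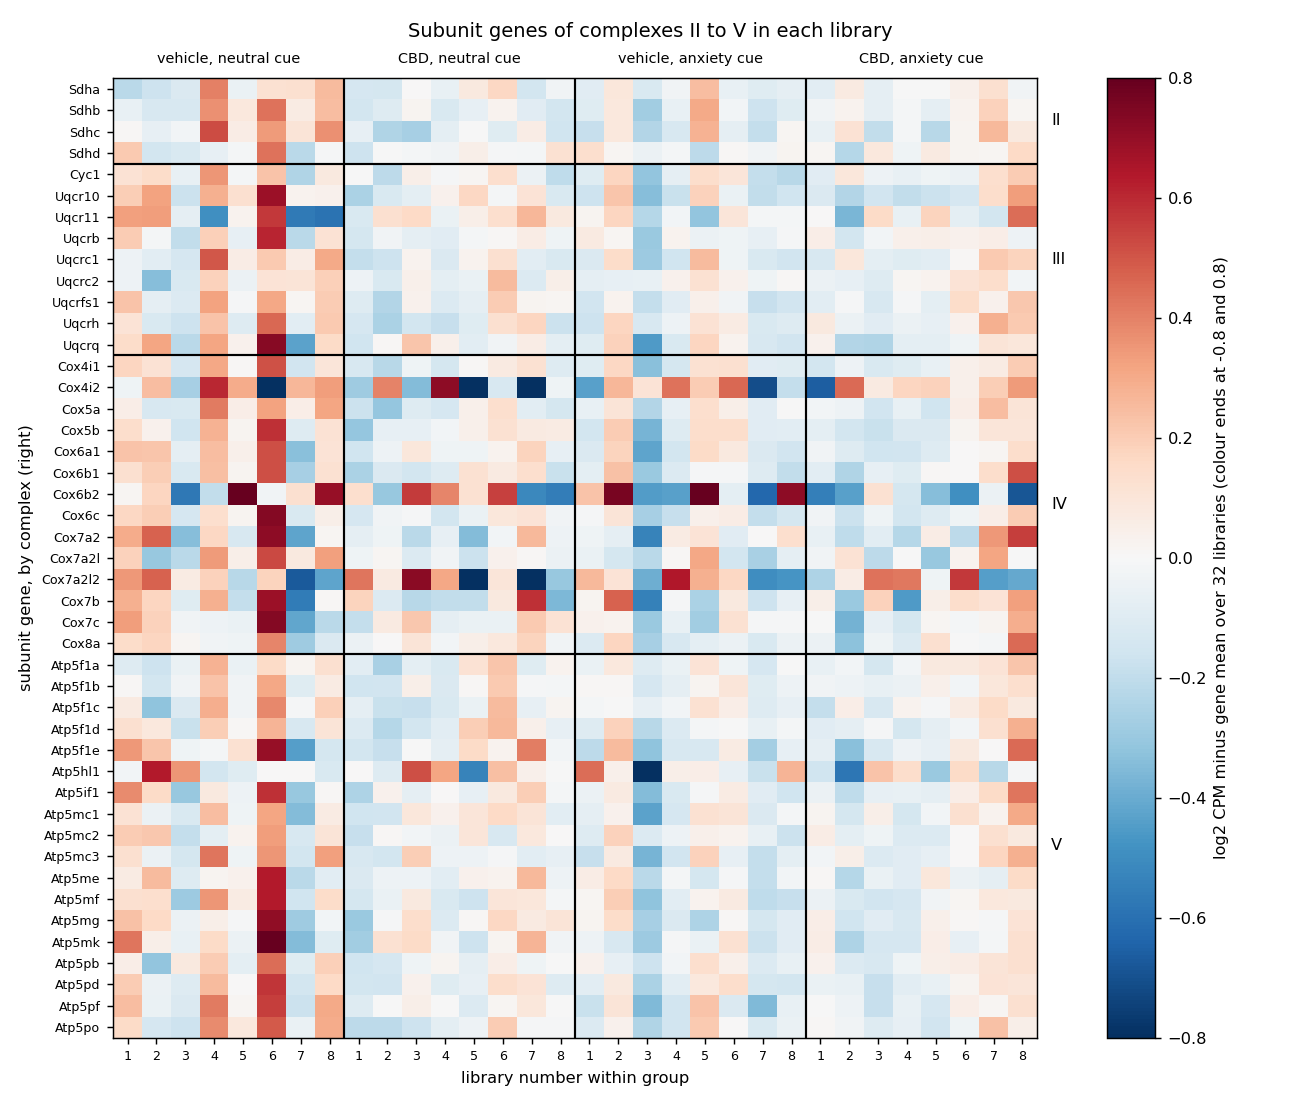
Log2 CPM of each tested member (rows, by complex) in each library (columns, by group), centred on the mean of all 32 libraries, with colour ends at -0.8 and 0.8. Vehicle neutral-cue library 6 is above the mean in 43 of 45 members, and vehicle anxiety-cue library 3 in 1.

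Not all members were high in the same libraries of the vehicle neutral-cue group. In libraries 4, 7 and 8 Slc17a6, the vesicular glutamate transporter of subcortical glutamatergic neurons, stood at 37.7, 36.1 and 39.8 CPM, and in vehicle anxiety-cue library 5 at 45.7 CPM, on the same TMM scale as the members. Sdhc was at 159, 119 and 142 CPM in those 3 libraries and 134 in the fourth, Sdha at 529, 438 and 476 CPM and 476, and Uqcrc1 at 231, 171 and 202 CPM and 195. Uqcr11 was low there, at 85.8, 81.4 and 79.9 CPM and 96.7. Library 6 did not stand apart from them in Sdhc, Sdha and Uqcrc1, which were at 140, 436 and 189 CPM. It did in Uqcr11, at 178 CPM the highest of its group, and in Cox7c, at 203 CPM against 118, 91.3 and 105 in libraries 4, 7 and 8. The part of tissue makeup in these members' values was not tested.

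Leaving out the 6 libraries with Slc17a6 of 20 or more in CPM before TMM scaling (1 of them, CBD anxiety-cue library 7, was at 19.6 CPM after it; 3 vehicle neutral-cue, 1 vehicle anxiety-cue and 2 CBD anxiety-cue) turned Sdha to 0.01 and Uqcrc2 to 0.04 for the cue in vehicle. Uqcr11 turned to -0.18 in the CBD comparison under the neutral cue. The medians without these libraries were -0.125 in II, -0.189 in III, -0.229 in IV and -0.22 in V for the cue in vehicle. For CBD with the neutral cue they were -0.121, -0.143, -0.187 and -0.159 in the same order. Member calls stayed at 0, with 19 genes called for the cue and 31 for CBD under the neutral cue. With the mean levels of oligodendrocyte, septal and pallidal, cortical and choroid plexus markers as covariates, the medians for the cue in vehicle were -0.07 in II, -0.13 in III, -0.15 in IV and -0.15 in V. Complex II moved most: Sdhc was at -0.09, Sdhb at -0.06 and Sdha at 0.03. Sdhc for CBD with the neutral cue was at -0.10 in that fit.

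Adipocyte markers moved with the groups as well, with a summed level of 17.2 to 124 CPM (median 69.8) in vehicle neutral-cue libraries, 17.5 to 23.6 CPM with CBD and the neutral cue, 17.4 to 76.7 CPM with vehicle and the anxiety cue and 19 to 62.4 CPM with CBD and the anxiety cue. Leaving out the 10 libraries with Plin1, a lipid droplet protein of adipocytes, above 5 CPM before TMM scaling kept 3 vehicle neutral-cue libraries (6, 7 and 8), 8, 5 and 6 in the other groups. In these, edgeR called 2972 genes for the cue in vehicle (16.9%), whose split by direction is not given here. Among them were 12 of the 45 tested members, all lower: Sdha, Sdhb, Sdhc, Uqcrfs1, Uqcrc1, Uqcr10, Cox5a, Cox6c, Cox7a2l, Atp5pf, Atp5po and Atp5mc3. For CBD with the neutral cue it called 2761 genes (15.7%) with 9 members, all lower, and the interaction had 1475 genes (8.4%) with 7 members, all higher. The complex II and III medians for the cue were then -0.31 and -0.31. Removing library 6 besides, a choice made after seeing the data, left libraries 7 and 8 as the vehicle neutral-cue group, both with high Slc17a6. The calls were then 6 members for the cue, of which Uqcr11 was higher, and 5 for CBD with the neutral cue, of which Uqcr11 and Cox7c were higher. More genes in general were called there than with library 6 kept, as counted in the closing section. For the fit without library 6 the share of all genes called is not given. Whether members were called more often than genes in general was not tested in either subset. The member counts are not read as a result about the members. The calls in these subsets rest on 3 or fewer libraries of the reference group. With liver and fat marker levels as covariates and all libraries kept, 0 genes and 0 members were called for the cue in vehicle. The same held for CBD with the neutral cue and for the interaction.

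**Figure D5:**
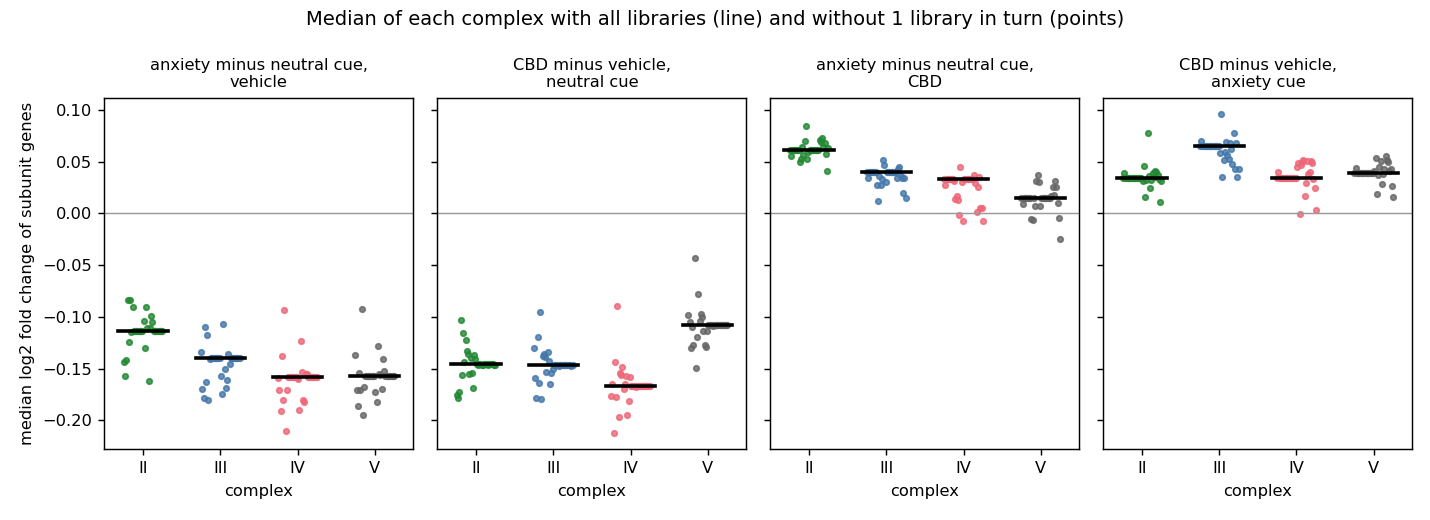
Median log2 fold change of each complex in the 4 comparisons of groups, with a line for all 32 libraries and points for fits with 1 library left out. The points stay below 0 in the cue comparison of vehicle libraries and the CBD comparison under the neutral cue, and no member was called in any of the 32 fits.

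The members shared their pattern across complexes within a library. In 23 of 32 libraries the 4 complex means stood on the same side of the overall mean. The gap between the highest and lowest complex in a library had a median of 0.1 and ran from 0.03 to 0.28, the largest in vehicle neutral-cue library 2, where complex II was at -0.13 and complex IV at 0.16. All complex means share the scaling of their library, so this agreement is a description. Within groups the median SD of a member on the log2 scale was 0.146 in complex II, 0.163 in III, 0.195 in IV and 0.168 in V. It was 0.249 over all genes tested, which were not matched to the members by level. Over all 32 libraries the ratio of the highest to the lowest CPM was 1.39 for Atp5f1b, 1.45 for Atp5f1a and 1.47 for Uqcrfs1. Atp5f1d and Atp5mc2 were also low, at 1.43 and 1.44. The ratio was 2.31 for Atp5mk and 2.41 for Cox7b, and it reached 4 for Cox6b2, which rests on few reads.

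Other genes of the pathway, taken from lists by function, are given for the cue in vehicle first and the CBD comparison under the neutral cue second. None passed an adjusted p of 0.05 by edgeR. Assembly factors had medians of -0.09 and -0.10 for complex II (4 tested), -0.11 and -0.07 for complex III (6), -0.03 and -0.01 for complex IV (23) and -0.10 and -0.08 for complex V (6). For complex IV factors, 15 of 23 were below 0 with the cue in vehicle, whereas 13 of 14 tested subunits were. Carriers and ATP export genes had medians of -0.12 and -0.12 (11 tested, 11 and 9 below 0). They included Cycs, the cytochrome c that runs between complexes III and IV, at -0.18 (SE 0.092) for the cue. Regulators of transcription had medians of 0.07 and 0.06, with 4 and 3 of 11 below 0. The genes for 3 factors that read the promoter motifs above were at 0.08 for Nrf1, 0.06 for Gabpa and 0.07 for Yy1 in the cue comparison.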

How the data were processed

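Polyadenylated RNA of 32 rat nucleus accumbens shell libraries (4 treatment labels, 8 each) had been extracted with a Zymo kit and sequenced on an Illumina instrument, per the labels' protocols. The authors deposited whole-number counts per gene symbol, with no normalization. STAR, featureCounts and DESeq2 and the builds mRatBN7.2 and Rnor_6.0 are named in the submitters' processing notes, with no roles for the builds. For overlapping genes and near-identical copies the counts are uncertain, with the strand setting not given in the sources used here.

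Counts were filtered by group (filterByExpr), scaled by TMM and fitted with a mean per group over all 32 libraries by edgeR 4.0.16 in R 4.3.3. Benjamini-Hochberg adjustment ran over 17059 genes, with a threshold of 0.05. Log2 CPM carried a prior count of 2. DESeq2 1.42.0, other filters, scaling, covariates and library sets were alternatives. No 2 of the 112 library pairs within groups held identical values. The code was tested on simulated data.

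Members and lists were chosen with earlier results of these data known. Per comparison the 2 members of each complex with the smallest p are named, and preset members by role may be. Proteins encoded in mitochondrial DNA are not analysed here.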

Additional observations from a re-analysis of the deposited data

Results flagged for a closer look

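A library far from the rest of its group was looked for in 140 groups (31 members and 4 complex means, each in 4 groups, 8 libraries a group), where chance gives about 1 in 20, and 9 were found, all at the high end. In vehicle neutral-cue library 6, Cox6c was at 144 CPM, with the next library at 98.5, and Atp5mg at 137 CPM, with the next at 98.7. In vehicle anxiety-cue libraries, Cox7a2l was at 115 CPM in library 5 (next, 93.6) and Cox8a at 152 CPM in library 2 (next, 131). In the CBD neutral-cue group, library 6 had Uqcrc2 at 178 CPM (next, 155) and Atp5po at 126 CPM (next, 109), and summed cortical glutamatergic markers at 1130 CPM (group median, 7.32), whose part in these values was not tested. Library 3 had Atp5mc3 at 157 CPM (next, 137). In the CBD anxiety-cue group, Sdhb was at 157 CPM in library 7 (next, 141) and Cox6b1 at 97.8 CPM in library 8 (next, 75.4). No complex mean stood apart in this way.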

How the results depend on the processing

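With all libraries, no member was called under DESeq2's size factors, either other filter on low counts, DESeq2 itself, the covariates tried or any of the 32 fits without 1 library. Genes called differed: 382 for CBD with the neutral cue and 14 for the interaction by DESeq2, 4 for CBD with the neutral cue with only the 2 groups compared, and 1 with the ribosomal protein covariate. Without 1 library each, 0 to 165 genes were called for CBD with the neutral cue (165 without vehicle anxiety-cue library 5) and 0 to 10 for the interaction. Without high Slc17a6 the counts were 19 for the cue in vehicle and 31 for CBD with the neutral cue. Without Plin1 above 5 CPM they were 2972, 2761 and, for the interaction, 1475 genes, with 12, 9 and 7 members, and medians of -0.311 (II) and -0.308 (III) for the cue in vehicle, -0.275 (II) for CBD with the neutral cue and 0.37 (II) for the interaction. The remaining settings were chosen after seeing the data. Without Plin1 above 5 CPM and library 6 the counts were 3603, 3350 and 2643 genes and 6, 5 and 5 members, with medians of -0.272 (II), -0.00071 (IV) and 0.336 (II) in the same order. Without vehicle neutral-cue library 6 and anxiety-cue library 3, 8 genes were called for CBD with the neutral cue.

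Signs were followed through the settings for 64 pairs of member and comparison, not for every tested member in every comparison. Among these pairs, signs turned for the following members. With the tissue covariates these were Sdha 0.033, Uqcrc2 0.051 and Atp5f1a 0.012 for the cue in vehicle, Sdha 0.012 and Uqcr11 -0.17 for CBD with the neutral cue, and Sdhc -0.004 and Sdhb -0.0049 for CBD with the anxiety cue. Without high Slc17a6 they were Sdha 0.011 and Uqcrc2 0.044 for the cue in vehicle, and Sdha 0.043 and Uqcr11 -0.18 for CBD with the neutral cue. Without Plin1 above 5 CPM Uqcr11 was at 0.074 for the cue in vehicle. Without the libraries with Alb above 20 CPM Atp5f1a was at -0.005 for the cue in CBD and Sdhd at 0.013 for CBD with the neutral cue. Without vehicle libraries 6 and 3, Sdhd was at 0.036, Uqcrc2 at 0.0015 and Uqcr11 at 0.089 for the cue, and Sdhd at 0.041 for CBD with the neutral cue. Without Plin1 above 5 CPM and library 6, Sdhd was at 0.11, Uqcr11 at 0.57, Atp5mk at 0.16 and Atp5mg at 0.064 for the cue, and Sdhd at 0.094 and Cox6c at 0.0029 for CBD with the neutral cue. With the ribosomal protein covariate, Sdhd was at 0.049 and Uqcr11 at 0.15 for the cue, and Sdhd at 0.05 for CBD with the neutral cue. Without 1 library each, Sdhd ran from -0.071 to 0.035, Uqcr11 from -0.1 to 0.067 and Uqcrc2 from -0.072 to 0.0099 for the cue in vehicle, and Sdhd from -0.061 to 0.04 for CBD with the neutral cue. The cause was not tested. No paired analysis was possible because the labels give no replicate numbers that pair libraries across groups. Depth limits Cox4i2, Cox6b2 and Cox7a2l2, which rest on few reads.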
